A study of Mus musculus with 5 samples.

Results

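Cytosolic ribosomal protein genes encode the protein parts of the small and large subunits of the ribosome. Members were chosen by symbol: Rps or Rpl with a number, Rplp with 0, 1 or 2, or Rpsa, leaving out Rps6k kinases and pseudogenes named -ps. A gene had to have a probe set annotated to it alone, and its brightest such probe set by the mean over all arrays stood for it. This gave 49 genes (23 of the small and 26 of the large subunit) out of 18193 genes with a probe set of their own. A further 28 symbols of the same form appeared only on probe sets shared with other genes or pseudogenes and are not named here. Of the 49, 46 passed a filter that left out the 40% of probe sets with the lowest mean, and 12813 genes passed in all. The 3 below it were Rpl39l (mean log2 intensity 5.65), Rpl3l (4.45) and Rps16 (4.32). The filter lay at 5.77, and the member nearest above it was Rps27 at 6.86.

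The arrays came from a study of how long-term haematopoietic stem cells (LT-HSCs) change their transcriptome when the transcription factor LRF, made from Zbtb7a, is lost. Controls were 2 samples of genotype Zbtb7a Flox/+ Mx1-Cre+ and knockouts were 3 samples of genotype Zbtb7a Flox/Flox Mx1-Cre+, all from C57BL/6 mice aged 4 weeks. Every animal, control or knockout, carried Cre under the interferon-responsive Mx1 promoter, received 2 injections of 250 µg pIpC and was sampled on day 9 after the first of them; the controls were themselves heterozygous. Cells were sorted as LSK (lineage-negative, Sca-1-positive, Kit-positive), IL7Ra-, Flt3-, CD150+ and CD48-. For knockout 3 the labels listed 2 animals where every other sample listed 1, so that library may be a pool. The p-values below measure only the spread between these samples.

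Each ribosome needs a copy of nearly every ribosomal protein, and the genes are known to be expressed together and at high levels in most cells. Their messenger RNAs typically begin with a 5' terminal oligopyrimidine (TOP) tract, a run of C and T bases through which mTOR signalling controls their translation. Haematopoietic stem cells are known to make protein at a low rate, and inherited loss of 1 copy of some of these genes causes Diamond-Blackfan anaemia, a failure of red cell production.

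The targeted gene did not check the labels. On the brightest of its 3 probe sets Zbtb7a read 8.22 and 8.36 in controls and 8.72, 8.33 and 9.06 in knockouts 1, 2 and 3. The other probe sets read 8.62 and 8.22 in controls against 7.97, 8.52 and 7.70 in knockouts, and 7.03 and 6.92 against 6.84, 7.16 and 6.76. On both of these, knockouts 1 and 3 lay below both controls and knockout 2 did not. The groups overlapped on every probe set, and whether any of them lies in the deleted part was not determined. Knockout 2 stood apart on the whole array. Its correlation with the other arrays across all probe sets was 0.945 to 0.970, against 0.977 to 0.990 for the other pairs. The 0.970 was with control 1, and with control 2, knockout 1 and knockout 3 it was 0.945 to 0.947. The Actb probe set at the 3' end exceeded that at the 5' end by 3.85 in knockout 2 and by 4.90 to 5.21 elsewhere. LT-HSC markers (11 of 13 tested) had list medians of 9.98 to 10.60 in controls and of 7.62 to 10.26 in knockouts, the lowest being knockout 2, where the median deviation from the mean of the controls was -2.47. For immediate early genes it was 2.60 in the same array. Markers of other cells were present in all arrays: the list median of neutrophil-lineage genes (10 of 10 tested) was 13.13 to 14.12 in controls and 11.68 to 14.35 in knockouts. Erythroid genes (8 of 11 tested) had medians of 11.22 to 12.68 and 12.18 to 12.86. Macrophage genes (12 of 12 tested) had medians of 9.51 to 10.35 in controls and 7.51 to 9.18 in knockouts. For 10 of the 12 all knockouts lay below both controls (4.5% of all genes). Their median deviation in knockout 2 was -2.52. Of the genes whose proteins the gate excludes, 5 of 8 were tested, with medians of 7.30 to 7.84 and 7.44 to 8.83. Some of these lists were high in knockout 2, the array in which the ribosomal protein genes were lowest. Its median deviation from the controls was 1.74 for the gate-excluded genes, of which it was the highest array for 4 of 5. For neutrophil genes the deviation was 0.92, and it was highest for 9 of 10. Over all genes tested, knockout 2 was the highest array for 26%. The part of any of these in the results below was not tested.

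No ribosomal protein gene was called changed between knockouts and controls. With limma's moderated test over all probe sets, 0 of 46 genes passed an adjusted p of 0.05, where 0% of the 12813 genes tested passed; 0 of 46 had an unadjusted p under 0.05, against 0.96% of all genes. The log2 differences (knockout minus control) ran from -0.37 for Rps15 to 0.24 for Rps25. Their median was -0.071, beside -0.030 over all genes tested, and 34 of 46 were negative (73.9%, against 56.3% of all genes). Among 1246 genes outside the list in the top 10% by mean, the median was -0.058 and 62.4% were negative. For 43 of the 46 genes the difference was smaller than 0.25 in either direction. The median standard error (SE) of a single gene was 0.27, so changes of this size could not be resolved by 5 arrays. In 0 of 46 genes did all knockouts lie above both controls (2.68% of all genes) and in 0 did all lie below (4.5% of all genes). Against control 2 alone, 20 genes had all knockouts lower (28.9% of all genes) and 0 had all higher (16.4% of all genes).

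Without knockout 2, the direction of the list turned. The median log2 difference became 0.12 (0.0032 over all genes), 40 of 46 genes were positive (87%, against 50.8% of all genes), and 28 genes changed sign. Again 0 of 46 passed the adjusted test (0% of all genes), and 1, Rps27l, had an unadjusted p under 0.05 (4.14% of all genes). Both remaining knockouts lay above both controls for 15 of 46 genes, and for 0 did both lie below; over all genes these shares were 13.9% and 13.5%. These values depended on the control and on the scaling. Without knockout 2 and against control 2 alone the median was -0.021, with 15 genes apart and higher and 20 apart and lower (28.7% and 39.5% of all genes). Against control 1 alone it was 0.27, with 42 higher and 0 lower (43.2% and 31.2% of all genes). With cyclic loess 6 were higher and 4 lower (15% and 20.7% of all genes).

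**Figure D1:**
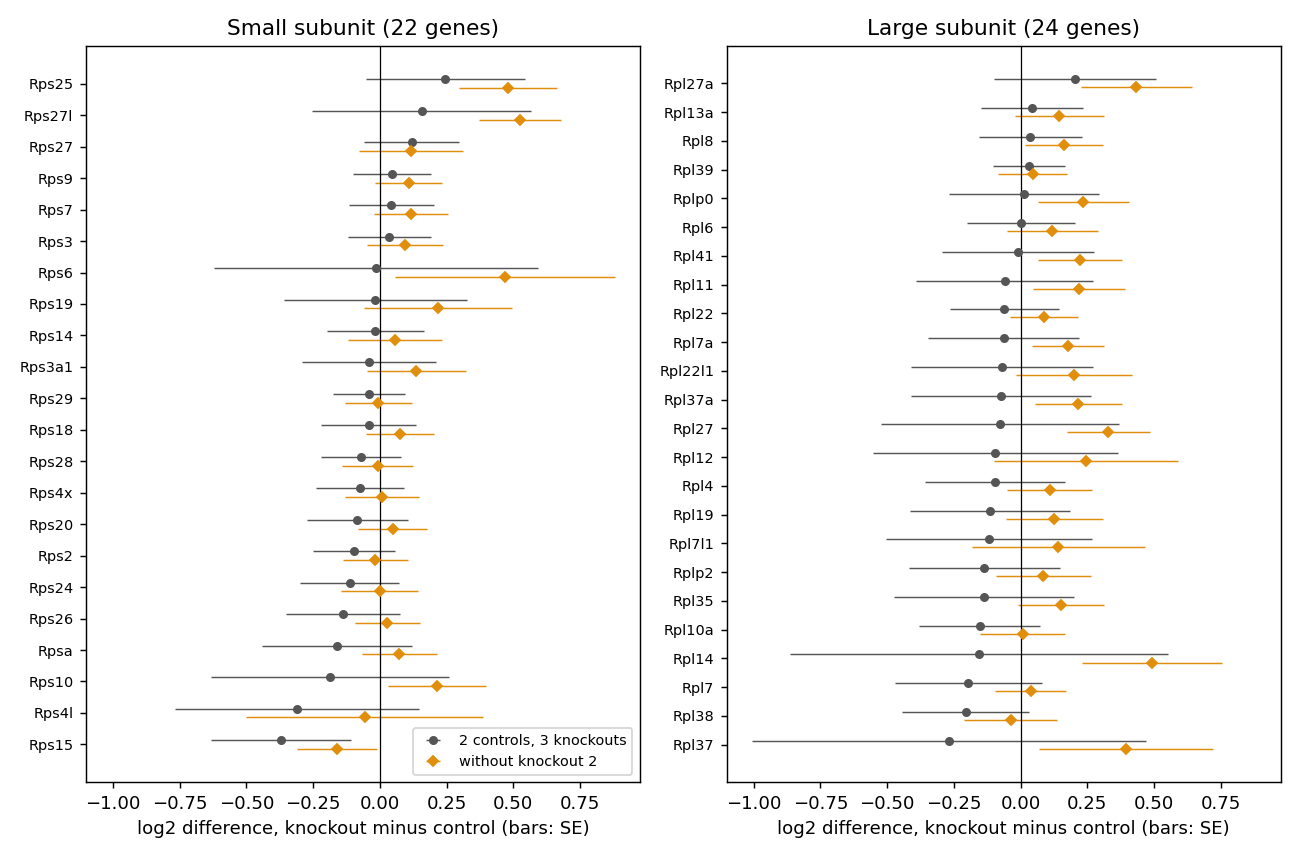
Log2 difference between knockouts and controls (x axis, bars are SE) for 22 small-subunit and 24 large-subunit genes, from all 5 arrays (grey circles) and without knockout 2 (orange diamonds). With all arrays the points run from -0.37 (Rps15) to 0.24 (Rps25), and without knockout 2 they lie to the right of 0 for 40 of 46 genes.

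Most members shared the same lowest array, knockout 2. The highest array varied: knockout 1 for 21 members, control 2 for 20 and knockout 3 for 5. Set against the mean of the 2 controls, the median over 46 genes was -0.13 in control 1, 0.13 in control 2, 0.16 in knockout 1, -0.48 in knockout 2 and 0.089 in knockout 3. Over all genes tested these medians were -0.040, 0.040, 0.00066, -0.079 and 0.0029. The controls thus differed from each other, with control 2 higher for 44 of 46 members (95.7%, against 56.3% of all genes) and a median gap of 0.27. Knockouts 1 and 3 lay inside or close to the span of the controls, and knockout 2 lay below it. Knockout 2 was below both controls, and the lowest of all 5 arrays, for 43 of 46 members (93.5%). Of all genes, 44.7% were below both controls there and 40.5% were lowest there. Among 1246 genes outside the list in the top 10% by mean, these shares were 57.5% and 52.7%. For 23 members the gap of knockout 2 to the next lowest array was wider than the whole range of the other 4. The members not lowest there, on the probe sets used, were Rpl39 (mean 7.66), Rps27 (6.86) and Rps3 (14.19). Another Rps3 probe set (mean 10.53) read 9.82 in knockout 2 and 10.10 to 11.06 on the other arrays. A dimmer one (mean 6.17) was highest in knockout 2, at 6.46. Since RNA was measured in bulk, fewer cells with a transcript and less of it in each cell cannot be told apart. Scaling moved the size of this shift: after cyclic loess between arrays the median in knockout 2 was -0.15 and it was lowest for 26 of 46 genes (56.5%, against 33.4% of all genes).

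**Figure D2:**
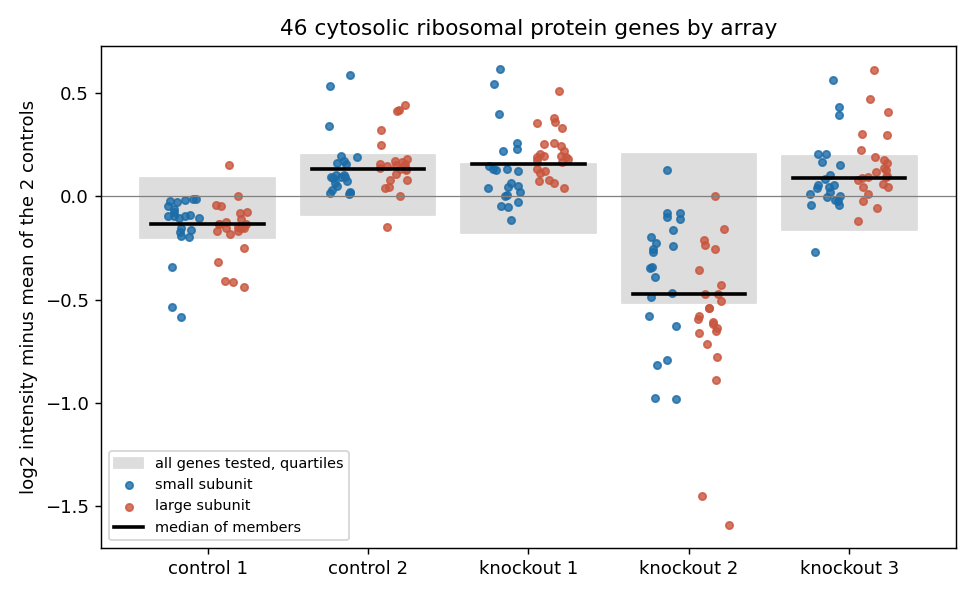
Log2 intensity of each of 46 genes minus the mean of the 2 controls (y axis) on the 5 arrays; blue points are small-subunit genes, red points large-subunit genes, black bars the median of all members and grey boxes the quartiles of 12813 genes. The members' median is -0.48 in knockout 2 and between -0.13 and 0.16 on the other arrays.

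The sequence around the annotated starts of the members was also examined, those below the filter among them. Whether the motifs bear on the array values was not tested. RefSeq (build GRCm38.p6) gave promoter entries for 43 of 49 members, 51 in all. In the window from 50 bases before to 20 bases after the start, CTTTC on the gene's strand, a short piece of many TOP tracts, was found in 14 of 51 member entries (27.5%) and in 9.42% of all 32851 entries. CGGAAG on either strand, the core bound by ETS-family factors, was found in 14 of 51 (27.5%) against 7.38%. Over each whole entry (250 bases before to 50 after) the shares were 60.8% against 34.8% for CTTTC and 60.8% against 16.9% for CGGAAG. The motifs were chosen after part of these sequences had been seen. They are matches of letters and not sites shown to be bound, and annotated starts can lie away from the start used in these cells. The other motifs searched over the whole entry, with any overlap allowed, were GGGCGG on either strand (52.9% against 35.7%), AAGATGG on either strand (15.7% against 6.34%), TATAAA on the gene's strand (9.8% against 8.32%) and CACGTG on either strand (9.8% against 7.15%). In the window near the start, GGGCGG was in 25.5% against 18.9%, AAGATGG in 0% against 1.31%, TATAAA in 1.96% against 2.96% and CACGTG in 1.96% against 2.3%. Windows of 70 bases are shown for the 5 genes farthest below the other arrays in knockout 2 (Rpl37, Rpl14, Rps6, Rps10 and Rpl27), for Rpl35, which has CTTTC beside the start, for Rpl38, which has both motifs there, and for the p53-responsive paralog Rps27l. Each is written 5' to 3' on the gene's strand, with CTTTC and CGGAAG (or its reverse complement CTTCCG) in capitals.
Rpl37 (chr15:5116563-5116632, + strand): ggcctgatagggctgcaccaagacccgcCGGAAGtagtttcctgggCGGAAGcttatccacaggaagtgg
Rpl14 (chr9:120571467-120571536, + strand): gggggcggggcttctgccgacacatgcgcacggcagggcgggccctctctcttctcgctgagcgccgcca
Rps6 (chr4:86857348-86857417, - strand): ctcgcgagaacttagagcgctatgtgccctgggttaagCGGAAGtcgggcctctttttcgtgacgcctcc
Rps10 (chr17:27635225-27635294, - strand): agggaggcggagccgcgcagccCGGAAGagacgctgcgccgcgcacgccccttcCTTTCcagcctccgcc
Rpl27 (chr11:101442195-101442264, + strand): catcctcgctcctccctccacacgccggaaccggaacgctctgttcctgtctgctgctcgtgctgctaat
Rpl35 (chr2:39005112-39005181, - strand): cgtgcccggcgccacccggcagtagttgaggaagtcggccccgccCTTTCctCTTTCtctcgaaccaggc
Rpl38 (chr11:114668530-114668599, + strand): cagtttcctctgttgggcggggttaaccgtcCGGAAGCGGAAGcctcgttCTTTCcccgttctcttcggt
Rps27l (chr9:66946036-66946105, + strand): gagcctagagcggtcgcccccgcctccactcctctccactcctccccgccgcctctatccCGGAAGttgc
Rpl38 thus held both motifs within 20 bases of its annotated start, while the Rps27l window held the ETS core and no CTTTC. The windows of Rpl14 and Rpl27 held neither motif, so among the 5 genes farthest below in knockout 2 the motifs were not shared.

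In the head of the small subunit, the part that turns during translocation, 9 of 13 listed genes were tested and 0 passed. The list median was -0.041 (0.074 without knockout 2), and knockout 2 was lowest for 8 of 9. Rps10 read 13.10 and 13.48 in controls 1 and 2, and 13.51, 12.31 and 13.50 in knockouts 1, 2 and 3. Only knockout 2 was low, 1.09 below the mean of the other arrays (2.13-fold). Rps15, which reaches toward the decoding site, had the most negative difference of all members (-0.37, SE 0.26). It read 11.25 and 11.35 in controls and 11.25, 10.51 and 11.03 in knockouts, and remained negative without knockout 2 (-0.16, SE 0.15). Rps25, a protein needed by some viral internal ribosome entry sites, had the most positive one (0.24, SE 0.30). It read 10.50 and 10.84 in controls, and 11.07 and 11.23 in knockouts 1 and 3, which were above both controls. Knockout 2 read 10.44, just under control 1. Rps19, the gene most often mutated in Diamond-Blackfan anaemia, read 12.61 and 13.29 in controls and 13.18, 12.46 and 13.16 in knockouts 1, 2 and 3. Its controls alone spanned more than the difference between the groups (-0.017, SE 0.34). Rps3, which lines the mRNA entry channel, read 14.08 in knockout 2, within the 14.07 to 14.31 of the other arrays. Rps29 read 14.56 to 14.71 over all 5 arrays and Rps28 read 14.40 to 14.68, with knockout 2 the lowest in each.

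In the body and platform of the small subunit, 11 of 17 listed genes were tested, 0 passed and the median was -0.039 (0.074 without knockout 2). Rps6, the substrate of S6 kinases downstream of mTOR, read 9.65 and 10.72 in controls and 10.73, 9.21 and 10.58 in knockouts 1, 2 and 3. Control 1 and knockout 2 were the low arrays, and the difference of -0.014 had an SE of 0.61. Rpsa, which also serves as a laminin receptor precursor, read 14.53 and 14.74 in controls, 14.70 and 14.72 in knockouts 1 and 3, and 14.01 in knockout 2. Rps14, whose loss on the human 5q deletion impairs red cell formation, read 14.04 and 14.37 in controls and 14.34, 14.04 and 14.19 in knockouts. Knockout 2 was level with control 1. Rps26 was nearly constant outside knockout 2, at 13.59 to 13.66 on the other 4 arrays and 13.13 in knockout 2. Rps9 (13.74 in knockout 2 against 13.81 to 13.98) and Rps4x (14.53 against 14.68 to 14.87) lay just below the others. The Rps27 probe set was dim and read 6.91 in knockout 2, inside the 6.63 to 7.04 of the other arrays.

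Among large-subunit genes the median difference was -0.075 over 24 genes and 0.16 without knockout 2, against -0.040 and 0.074 for the 22 small-subunit genes. The median position of knockout 2 relative to the controls was -0.56 for the large and -0.31 for the small subunit; whether the subunits differ was not tested. Rpl37 had the widest drop. It read 9.32 and 10.15 in controls, 10.12 and 10.15 in knockouts 1 and 3, and 8.15 in knockout 2, which is 1.79 below the mean of the others (3.46-fold). Rpl14 followed, at 9.80 and 10.44 in controls, 10.63 and 10.59 in knockouts 1 and 3, and 8.67 in knockout 2 (1.70 below the others). With knockout 2 left out, both remaining knockouts exceeded both controls for Rpl14, a difference of 0.49 (SE 0.26). Rpl27 read 12.93 and 13.19 in controls and 13.42, 12.17 and 13.36 in knockouts 1, 2 and 3. It showed the same order of arrays as Rpl14. Its difference was -0.078 (SE 0.45) with all arrays and 0.33 (SE 0.16) without knockout 2.

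The stalk recruits the elongation factors to the large subunit. Of its 4 listed genes, Rplp0, Rplp2 and the stalk-base gene Rpl12 were tested, and 0 passed. Rplp0 read 13.57 and 13.84 in controls and 14.03, 13.27 and 13.84 in knockouts 1, 2 and 3, a difference of 0.013 (SE 0.28). Rpl12 read 9.24 and 10.13 in controls and 9.88, 8.91 and 9.98 in knockouts. Control 1 was low beside control 2 for both genes, as it was for most members. Rpl11, which with Rpl5 and 5S RNA binds and inhibits Mdm2 when ribosome assembly fails, was 12.83 ± 0.24 (SD) in the 2 controls and read 13.08, 12.22 and 13.03 in knockouts 1, 2 and 3. Knockouts 1 and 3 were above both controls and knockout 2 below them (difference -0.060, SE 0.33). Of the 8 listed genes of the peptide exit tunnel and its rim, 4 were tested and 0 passed. Rpl4, which forms part of the tunnel wall, read 14.03 and 14.32 in controls and 14.30, 13.67 and 14.27 in knockouts. Rpl35, at the tunnel exit, read 13.81 and 14.08 in controls and 14.17, 13.23 and 14.02 in knockouts. Knockout 2 was again the low array in both. Rpl39 was flat at 7.62 to 7.76. Rpl27a, with a difference of 0.20 (SE 0.30), was the largest positive value of the large subunit; it was the 1 tested member in which control 1 (11.84) was above control 2 (11.54), and knockout 3 was the highest array at 12.30.

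Paralogs are additional copies that can replace or accompany the usual protein. Of 7 listed, 6 had a probe set of their own, 4 were tested and 0 passed. Rps27l, a p53 target related to Rps27, had the smallest limma p of any member without knockout 2. It read 10.97 and 11.15 in controls, 11.68 and 11.49 in knockouts 1 and 3, and 10.48 in knockout 2. The arrays therefore fell into 3 levels, with knockout 2 below the controls and the other knockouts above. Its difference was 0.16 (SE 0.41) with all arrays and 0.53 (SE 0.15) without knockout 2, a 1.44-fold increase with a limma adjusted p = 0.953. Its other 2 probe sets gave 0.14 and 0.21 with all arrays, and 0.51 and 0.54 without knockout 2. Rpl22l1 and Rpl22, a pair in which Rpl22 protein is known to hold down expression of its paralog, moved alike. Rpl22l1 read 12.66 and 13.16 in controls and 13.09, 12.30 and 13.13 in knockouts 1, 2 and 3, and Rpl22 read 14.35, 14.44, 14.53, 14.04 and 14.45 in the same order. Both were lowest in knockout 2, and their differences were -0.070 (SE 0.34) and -0.060 (SE 0.20). Rpl7l1, a relative of Rpl7, differed by -0.12 (SE 0.39), and Rpl7 itself by -0.20 (SE 0.28). Rps4l, listed by RefSeq as a transcribed pseudogene, read 6.55 and 7.72 in controls and 6.32 to 7.14 in knockouts (-0.31, SE 0.46), all within or below a control range of more than 1 log2 unit. The muscle paralog Rpl3l read 4.25 to 4.71 and the testis paralog Rpl39l 5.30 to 6.06, each on a probe set below the filter.

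The Diamond-Blackfan list, 19 genes of which 11 were tested, had a median of -0.072 (0.12 without knockout 2) with 0 passing, 9 negative and 2 positive. Beyond Rps19, Rps10, Rps26, Rpl11, Rpl27 and Rpl35 above, Rps24 had a mean of 13.39 ± 0.15 (SD) over the 2 controls and 13.28 ± 0.20 (SD) over the 3 knockouts. The means of Rps7 were 14.34 ± 0.14 and 14.38 ± 0.13. Neither difference exceeded the spread between replicates.

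Between genes, the members with brighter probe sets had the smaller median drops in knockout 2. Arrays ended between 15.19 and 15.29, and 31 of 46 members had a mean of 13 or more, where signals near saturation are known to compress differences; probe sets cannot be ranked against each other as transcript levels. The 18 members with means of 14 or more lay 0.11 to 0.68 below the other arrays (median -0.34), and the 13 members from 13 to 14 had a median of -0.55. The 6 members from 11 to 13 had a median of -0.71 and the 6 from 9 to 11 a median of -1.06. All genes tested had medians of -0.19, -0.22, -0.25 and -0.25 in the same bands. Across 46 members the correlation between the mean of the other 4 arrays and the position of knockout 2 was 0.28 (Spearman 0.47); genes are not independent replicates and the points share the same arrays. The 3 members below 9 did not follow, with Rps4l at -0.79, Rpl39 at -0.023 and Rps27 at 0.068. Within genes the result was mixed, with each probe set taken relative to the other arrays. Of 21 genes with at least 2 tested probe sets, the dimmest was lower than the brightest in knockout 2 in 11. Several of the dimmest had means below 9, where members did not follow between genes either. Among them were Rps20 (6.13), with the dimmest lower, and Rps3 (6.17), with the dimmest higher. Where the dimmest had a mean of 9 or more, it was lower for Rpl13a, Rpl22, Rpl41, Rpl7, Rps14, Rps28, Rps29 and Rps7. Some of these gaps were small, as for Rpl7 (-0.681 and -0.683). For Rpl27, Rps15 and Rps27l the dimmest was higher. The count of 11 of 21 therefore does not decide whether the relation holds within genes.

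**Figure D3:**
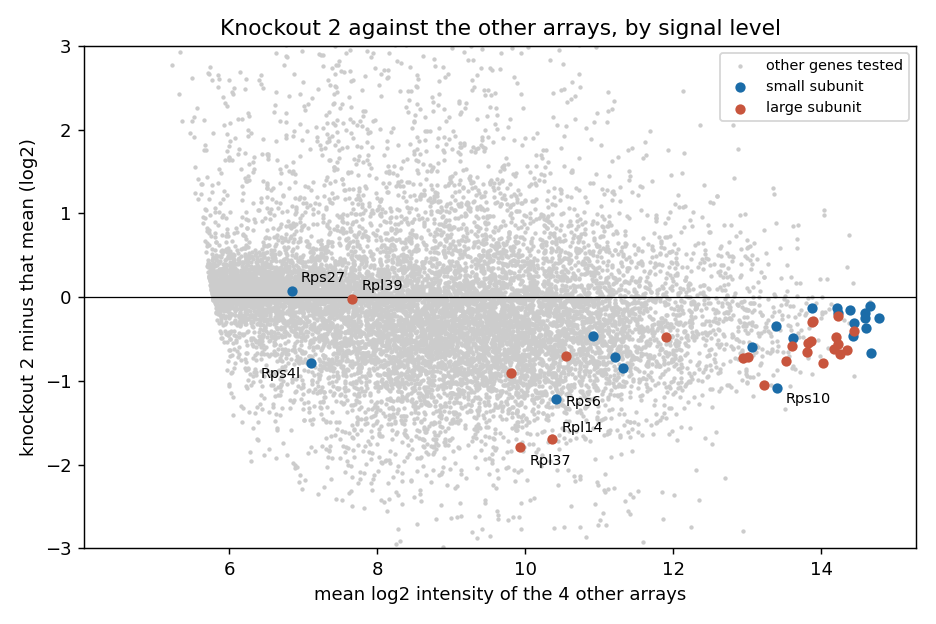
Knockout 2 minus the mean of the other 4 arrays (y axis, log2) against that mean (x axis, log2 intensity); coloured points are 46 ribosomal protein genes and grey points the other genes tested, 116 of which lie outside the plotted range of 3 in either direction. Of the 46 members, all but Rps27 lie below 0, and the 6 between 9 and 11 have the lowest band median, -1.06, with Rpl37 at -1.79 and Rps25 at -0.47 at its ends.

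Several genes had further probe sets of their own, which gave a check within a gene. Of 21 genes with at least 2 tested probe sets, 16 were lower in knockout 2 on every probe set and 8 gave knockout-control differences of opposite sign. Rps24, which encodes a protein with several splice forms, was the 1 gene with differences of opposite sign that spanned at least 0.5, from -0.89 to 0.055. The positive one came from a dim probe set with a mean of 6.91, and the brightest gave -0.11. The probe set at -0.89 read 9.38 and 11.17 in controls and 10.01, 7.75 and 10.40 in knockouts. The controls alone differed by 1.79 there. For Rps10 the distance of knockout 2 from the mean of the other arrays ran from -0.25 to -1.54 over 6 probe sets, for Rpl22 from -0.40 to -1.43 over 3 and for Rpl13a from -0.23 to -1.24 over 4. In these 3 genes the dimmest probe set was the most negative. In others it was not. The brightest and dimmest probe sets gave -1.05 and -0.49 for Rpl27, and -0.79 and -0.34 for Rpl35. They gave -0.71 and 0.020 for Rps15, and -0.13 and 0.37 for Rps3. These dimmest probe sets had means of 12.19 for Rpl27, 5.90 for Rpl35, 9.75 for Rps15 and 6.17 for Rps3. The remaining Rps3 probe set, with a mean of 10.53, gave -0.89. Of the 46 probe sets used, 16 have names with _x_at, which can match similar transcripts, pseudogenes among them, so the source of their signal is uncertain. The probe sets shared by several genes (103 tested) had a median difference of -0.071, and in knockout 2 their median distance from the other arrays was -0.52, beside -0.53 for the 46 genes.

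**Figure D4:**
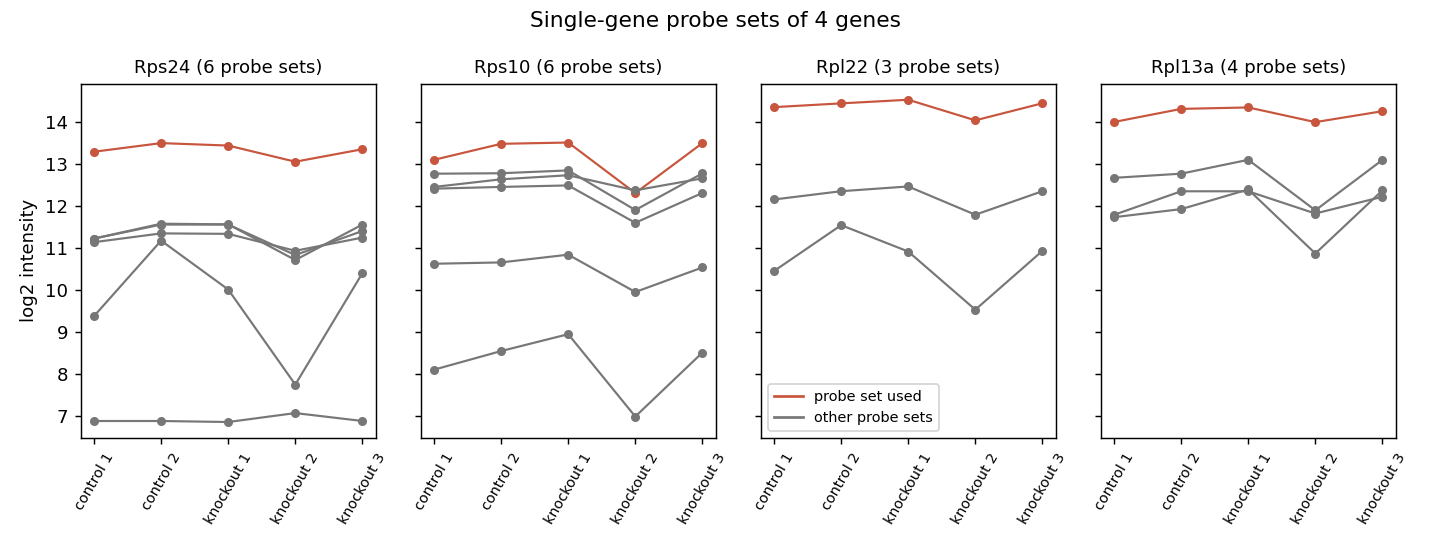
Log2 intensity (y axis) of every single-gene probe set of Rps24, Rps10, Rpl22 and Rpl13a on the 5 arrays (x axis); the probe set used for the gene is red and the others are grey. Most lines dip at knockout 2, and the Rps24 probe set that reads 7.75 there also differs between the controls.

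In each list of genes that serve ribosomes in other ways, 0 genes passed limma's adjusted test. The median of most of these lists was lowest in knockout 2. Fau, which encodes a ribosomal protein fused to a ubiquitin-like domain, was flat at 11.41 to 11.58. A list of translation factors and some other genes with TOP messages (14 of 15 tested) had a median of -0.047 and lay at -0.48 in knockout 2. Eef2, the translocation factor, read 12.74 and 12.98 in controls and 12.87, 12.34 and 12.79 in knockouts. Mitochondrial ribosomal proteins, which form a separate ribosome, had a median of -0.029 over 73 genes and lay at -0.54 in knockout 2. Of these, 32 were positive and 41 negative, and without knockout 2, 66 were positive. Ribosome biogenesis factors had 29 positive and 21 negative of 50, with a median of 0.037 that became 0.39 without knockout 2, where 49 of 50 were positive. Nop58, a core protein of box C/D particles that guide rRNA methylation, read 8.69 and 9.69 in controls and 9.95, 8.69 and 10.06 in knockouts. Its knockout 2 value matched control 1, and knockouts 1 and 3 were the highest arrays. Fbl, the methyltransferase of the same particles, read 11.61 and 12.18 in controls and 12.01, 10.85 and 11.72 in knockouts, with knockout 2 lowest and the other knockouts between the controls. RNA polymerase I genes (14 of 14 tested) had a median of -0.016 and lay at -0.55 in knockout 2. Genes that signal growth to ribosomes had 7 positive and 7 negative of 14. Among them Mycn, a MYC-family regulator of ribosome genes, read 10.49 and 12.07 in controls and 11.43, 9.07 and 11.69 in knockouts, with knockout 2 lowest and control 1 next. Max, the partner of MYC proteins, read 7.63 and 7.77 in controls and 8.14, 8.60 and 7.99 in knockouts, all above the controls (0.54, SE 0.23). Rptor, the mTORC1 scaffold, read 9.66 and 9.69 in controls and 9.50, 9.23 and 9.34 in knockouts, all below (-0.32, SE 0.15). Max and Rptor were the only genes of this list with groups apart. That is 1 higher and 1 lower of 14, where 2.68% and 4.5% of all genes were apart.

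Genes of the p53 response, which failed ribosome assembly can set off, did not show that order. Ribosome assembly itself was not measured. Of 9 tested genes, 6 were positive and 3 negative, and the median was 0.092. Knockout 2 was highest for 6 of the 9 (26% of all genes). All knockouts lay above both controls for 2 of the 9 and below both for 0 (2.68% and 4.5% of all genes). Cdkn1a, the cell cycle inhibitor p21, read 7.62 and 7.54 in controls and 7.79, 8.86 and 8.04 in knockouts, above both controls in each (0.65, SE 0.36; limma adjusted p = 1). Mdm2, the p53 ligase that Rpl11 binds, read 10.04 and 10.16 in controls and 10.16, 10.47 and 10.13 in knockouts.

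**Figure D5:**
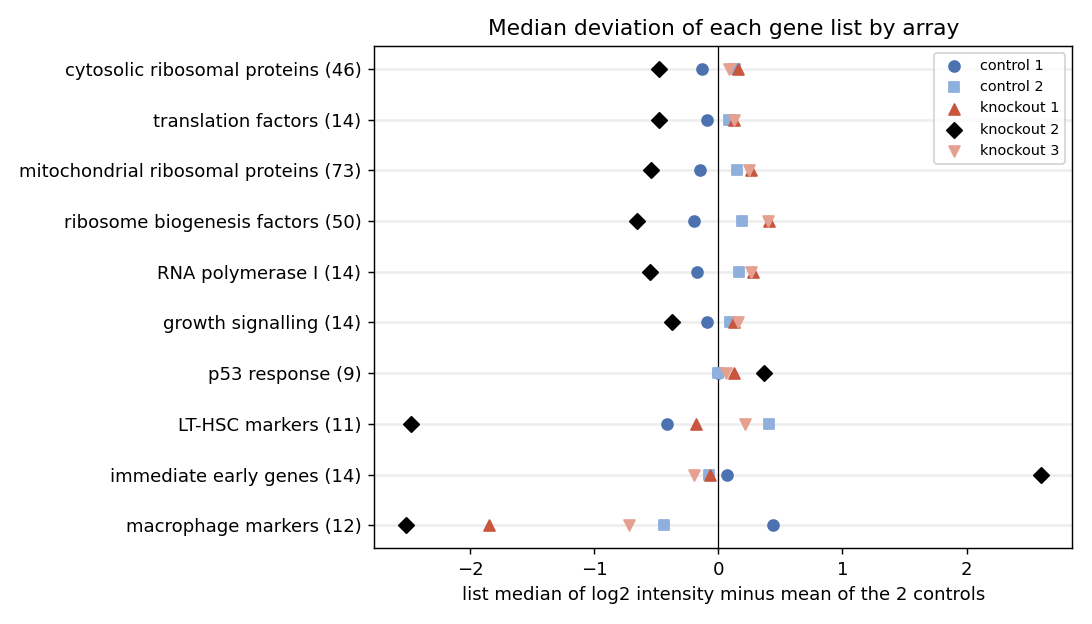
Median over each gene list of the log2 intensity minus the mean of the 2 controls (x axis) on each of 5 arrays (symbols); numbers in brackets are the genes tested. The list labelled translation factors also holds some other genes with TOP messages. Knockout 2 (black diamonds) lies between -0.37 and -0.65 for the first 6 lists and at 0.37 for the p53 response. It lies at -2.47 for LT-HSC markers, 2.60 for immediate early genes and -2.52 for macrophage markers.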

How the data were processed

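The authors deposited log2 intensities of 5 mouse arrays. The submitters' processing notes name RMA and Affymetrix Expression Console, without versions. RMA gives all arrays one distribution, which takes out any change common to most transcripts. Per the labels' protocols, in vitro transcription was run for 2 rounds. The table held 45101 probe sets; 64 controls were left out, and 27022 of the remaining 45037 passed the filter. Platform annotation gave 1 symbol to 34945 probe sets, several to 932 and none to 9160. Differences were fitted with limma 3.58.1 in R 4.3.3 (lmFit, eBayes, no covariate, two-sided, Benjamini-Hochberg over 27022 probe sets, threshold 0.05), with and without knockout 2, and the fit was tested on simulated data. Named genes were those past the threshold, the 8 with the largest differences in each direction whose groups did not overlap, the 4 highest and lowest means, the 5 most extreme in knockout 2 in each direction, the paralogs with their counterparts, up to 5 with discordant probe sets and up to 4 per list; the other genes, among them Rpl13a, Rpl27a, Rpl38, Rps7, Rps14, Rps19, Nop58 and Mycn, were added with their values known. Members and lists were chosen with earlier results of these data known. The number of arrays limits precision.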

Additional observations from a re-analysis of the deposited data

How the results depend on the processing

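The count of 0 genes past the adjusted threshold held with no filter, with the lowest 60% of probe sets left out, array weights, a trended robust eBayes prior, median centring, cyclic loess, probe sets averaged per gene, probe sets without _x_at or _s_at, a replicate block, and without each array in turn, with or without knockout 2 where such a fit could be made. The smallest adjusted p was 0.856 (array weights) with all arrays and 0.338 without knockout 2 and control 2. The median difference of -0.071 turned to 0.14 with array weights and was -0.0046 with cyclic loess (25 of 46 negative); leaving out single arrays gave -0.20 (without control 1) to 0.12 (without knockout 2). The cause was not tested. Genes with groups apart and knockouts higher numbered 0 with all arrays and 0 to 15 without single arrays, the 15 without knockout 2 (13.9% of all genes). Knockouts lower numbered 0 to 20, the 20 without control 1, where 28.9% of all genes were apart and lower. Cyclic loess gave 1 (6.89% of all genes). The mean of probe sets also gave 1, and the share of all genes was not computed for that setting. Without knockout 2, cyclic loess gave a median of 0.057 instead of 0.12. With the replicate block the median was -0.15, as without knockout 3, since only knockouts had a number 3. Deviations of same-numbered arrays from their group means correlated at -0.54 and -0.57. With only 2 controls, the deviations of one are those of the other with the sign reversed. These correlations therefore cannot show whether same-numbered samples were paired. The labels stated no pairing, and the numbers were taken as names only. Without knockout 2 no block could be fitted. Of the 46 genes, 4 moved by more than their replicate spread: Rps29 with cyclic loess (0.028), Rpl39 with array weights (0.096), and Rps24 (-0.89) and Rpl41 (-0.40) without _x_at or _s_at probe sets. Probe sets shared by several genes and members with means under 13 were chosen after seeing the data and gave medians of -0.071 and -0.060.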
